A study of Mus musculus with 42 samples.

Results

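The Kallikrein 1 family comprised 10 of the 26653 genes measured in mice that lack the long noncoding RNA locus Tug1: Klk1, Klk1b5, Klk1b8, Klk1b9, Klk1b16, Klk1b21, Klk1b22, Klk1b24, Klk1b26 and Klk1b27. The members were picked by gene symbol with the values of these same tissues already known, so the levels and differences given for them are a description and were not tested. RNA-seq of polyadenylated RNA was performed on testes, prostate, spleen, eye, heart, liver and mouse embryonic fibroblasts (MEFs, a primary culture taken at passage 2). All animals were males of the Tug1_tm1.1Vlcg line on a C57BL/6J background recorded as N3 and free of the Neo cassette. Wild-type (WT) mice carried 2 normal Tug1 alleles. In homozygous Tug1 knockout (KO) mice, a lacZ reporter replaced Tug1 on both alleles. There were 42 samples: 4 WT and 3 KO testes, 3 WT and 2 KO prostates, and 3 of each genotype for the other tissues. The ages of the animals were not used here.

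Every value below is an FPKM (fragments per kilobase of transcript, scaled to the number of mapped fragments), with 1 value that combines the samples of a genotype in a tissue. No replicate values stood behind them in the table, so no standard deviation could be computed, the differences have no replicate check, and the sequencing depth is unknown. Tug1 itself read 11.2 to 27.7 FPKM in WT tissues and at most 0.402 FPKM in KO tissues, and lacZ ran from 0.355 to 54.3 FPKM in KO and reached at most 0.00894 FPKM in WT. Except for the eye, tissue identity was checked with 1 gene each. Prm1 (testes), Pbsn (prostate), Cd79a (spleen), Myh6 (heart), Apoa1 (liver) and Col1a1 (MEFs) all had their highest levels in the tissue named. The median log2 change of all genes with a mean of at least 1 FPKM lay between -0.06 in testes and 0.03 in heart.

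Tissue kallikreins are secreted serine proteases. Klk1, the true tissue kallikrein, cuts kininogens to release kinin, a peptide that widens vessels and lowers blood pressure. In the mouse, repeated duplication beside Klk1 produced the Klk1b genes, which are best known from the submandibular salivary gland, where androgens raise many of them, and several of which process growth factors or prorenin. Klk1b22, Klk1b26 and Klk1b9 encode the EGF-binding proteins of types A, B and C. Klk1b26 is also called prorenin-converting enzyme, and Klk1b16 is known as gamma-renin. Klk1b21, Klk1b24 and Klk1b27 have been described in Leydig cells, the androgen-producing cells of the testis.

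The 10 genes lie on the plus strand of chromosome 7 within 279 kb, from Klk1b8 at chr7:43950664-43954941 to Klk1 at chr7:44225360-44229618 (GRCm38, the assembly also called mm10, GENCODE vM21). Tug1 is on another chromosome, 11. The coding parts of the members are 777 to 789 bases long, and all 10 are built of 5 exons. Over the 45 pairs of members, coding identity ran from 81.9% to 95.3%, with a median of 86.3%. The closest pair was Klk1 and Klk1b5. The nearest relative of Klk1b22 was Klk1b21, with 88.5% identity.

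A pair of coding comparisons shows how far reads can separate these genes. Each is the 60-base stretch with the most substitutions between a member and its nearest relative, with the differing bases in capitals and all sequence taken from GENCODE vM21. In exon 2, Klk1b22 (chr7:44114721-44114780) and Klk1b21 (chr7:44104365-44104424) differ at 8 of 60 bases.
Klk1b22: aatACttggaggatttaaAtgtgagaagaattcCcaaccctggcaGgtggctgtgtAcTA
Klk1b21: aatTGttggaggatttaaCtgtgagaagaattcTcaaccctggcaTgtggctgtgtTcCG
In exon 4, Klk1 (chr7:44228943-44229002) and Klk1b5 (chr7:44220023-44220082) reach a difference of only 4 bases in their most different stretch.
Klk1: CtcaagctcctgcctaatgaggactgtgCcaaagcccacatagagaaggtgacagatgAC
Klk1b5: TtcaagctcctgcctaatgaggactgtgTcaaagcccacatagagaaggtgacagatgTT
The whole coding parts differ by 65 substitutions for Klk1b22 and Klk1b21 and by 31 for Klk1 and Klk1b5. Gaps in the alignments are not in these counts, but they do lower the identities given above.

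To see where reads could be shared, every 100-base window of a member's transcript was looked for in the other transcripts of the family, pseudogenes included. Klk1 was the least separable. In its transcript, 32.5% of windows occurred elsewhere in the family with at most 2 mismatches, mostly in Klk1b5 (26.5%), and 6.08% occurred without any mismatch. Klk1b24 followed at 28.5%, shared mostly with Klk1b27 and Klk1b21, and Klk1b8 stood at 18.0%, all with Klk1b26. Klk1b22 shared 6.22% of its windows at 2 mismatches and none exactly, and Klk1b16 had the lowest share, 5.90%. Each share is of the transcript's own windows, 756 for Klk1b22 and 1288 for the longer annotated transcript of Klk1b16, so these shares do not rank the members by separability alone. Klk1 also overlaps the pseudogene Gm10109 on the opposite strand, and the library kit does not keep strand. Gm10109 stayed at or below 0.958 FPKM in every group.

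**Figure D1:**
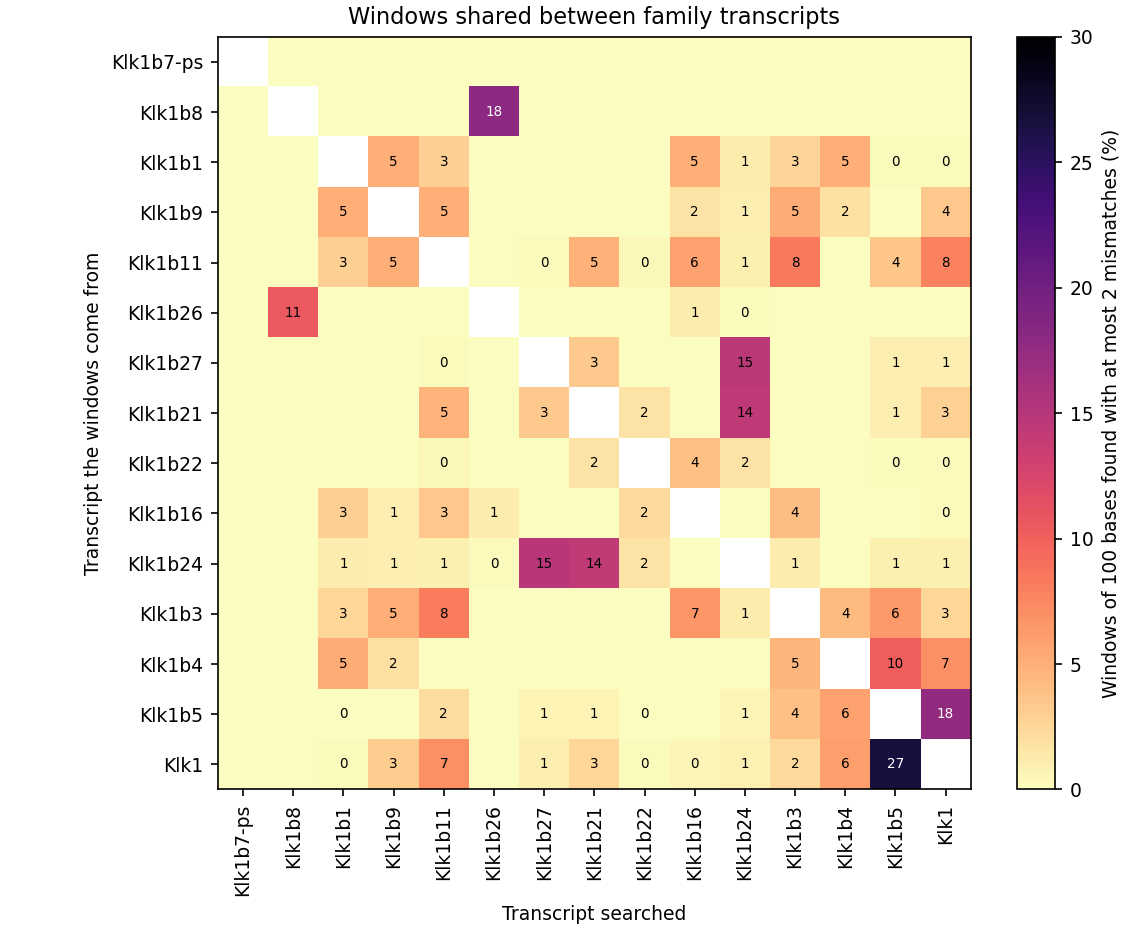
Share of 100-base windows of each family transcript (rows, in genome order) that occur with at most 2 mismatches in another family transcript (columns). Colour and number give the percentage, blank coloured cells are 0 and white cells are the gene itself. The darkest cells are Klk1 in Klk1b5 (26.5%), Klk1b8 in Klk1b26 (18.0%) and Klk1b5 in Klk1 (17.6%), and the row of Klk1b22 stays below 4%.

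The sequence before the start site was compared between members. The 100 bases upstream are shown for Klk1b8, the most abundant member, for Klk1b9 and Klk1b22, which are alike here but not in their levels, and for Klk1. They come from RefSeq (GRCm38.p6, plus strand), and the 6 letters TTTAAA are in capitals where they occur. Their positions are chr7:43950564-43950663, chr7:43975961-43976060, chr7:44112573-44112672 and chr7:44225260-44225359.
Klk1b8: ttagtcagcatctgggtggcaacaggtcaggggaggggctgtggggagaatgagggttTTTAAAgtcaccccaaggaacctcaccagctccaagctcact
Klk1b9: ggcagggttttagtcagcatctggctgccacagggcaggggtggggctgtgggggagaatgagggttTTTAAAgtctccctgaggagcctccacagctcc
Klk1b22: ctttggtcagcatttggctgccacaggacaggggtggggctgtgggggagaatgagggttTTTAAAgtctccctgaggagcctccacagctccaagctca
Klk1: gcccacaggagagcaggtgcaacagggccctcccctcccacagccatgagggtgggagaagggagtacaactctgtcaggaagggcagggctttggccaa
All 10 members matched a RefSeq promoter entry. TTTAAA, which reads the same on both strands, was present in the last 50 bases before the RefSeq start of 8 members, against 2.37% of all 32851 promoters. The members are duplicated copies, so these are not 8 separate cases. For Klk1b26, Klk1b16 and Klk1b5 the count rests on the RefSeq start. Their GENCODE starts lie further upstream, and TTTAAA comes after them. In Klk1b21 the absence rests on the annotated start: TTTAAA begins 4 bases after its RefSeq start, and 32 bases before its GENCODE start, which lies 36 bases further on. Klk1 had no TTTAAA in the whole RefSeq entry, 250 bases before to 50 after its start. The motif starts 44 bases before the RefSeq start of Klk1b8, 33 before Klk1b9 and 40 before Klk1b22. TATAAA, searched on both strands, was in the last 50 bases of 0 members and of 3.50% of all promoters. TGTTCT, a part of the sequence that androgen and glucocorticoid receptors bind, was found on either strand within 250 bases of 1 member and of 16.1% of all promoters. Over the 100 bases, Klk1b22 was 84.1% identical to Klk1b9 and 82.7% to Klk1b8, and 49.6% to Klk1. Its identity to Klk1b21 was 47.7%, over windows that are offset by the difference in annotated starts.

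Among the 7 tissues sampled, the summed family was highest in testes in WT animals. Salivary gland and pancreas were not sampled. The summed level of the 10 members was 114 FPKM in WT testes and 103 FPKM in KO testes. The next highest WT sum, in spleen, was 5.10 FPKM, a 22.3-fold lower level, and it was mostly Klk1. In WT eye, heart and liver the sums were 0.466, 0.486 and 0.165 FPKM. WT prostate gave 0.0234 FPKM, and in MEFs every member was listed at 0 in both genotypes. Of the 140 member values, 78 were listed at 0 and 23 reached 1 FPKM, 17 of them in testes. With the exception of Klk1, all members (9 of 10) had their highest WT level in testes.

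**Figure D2:**
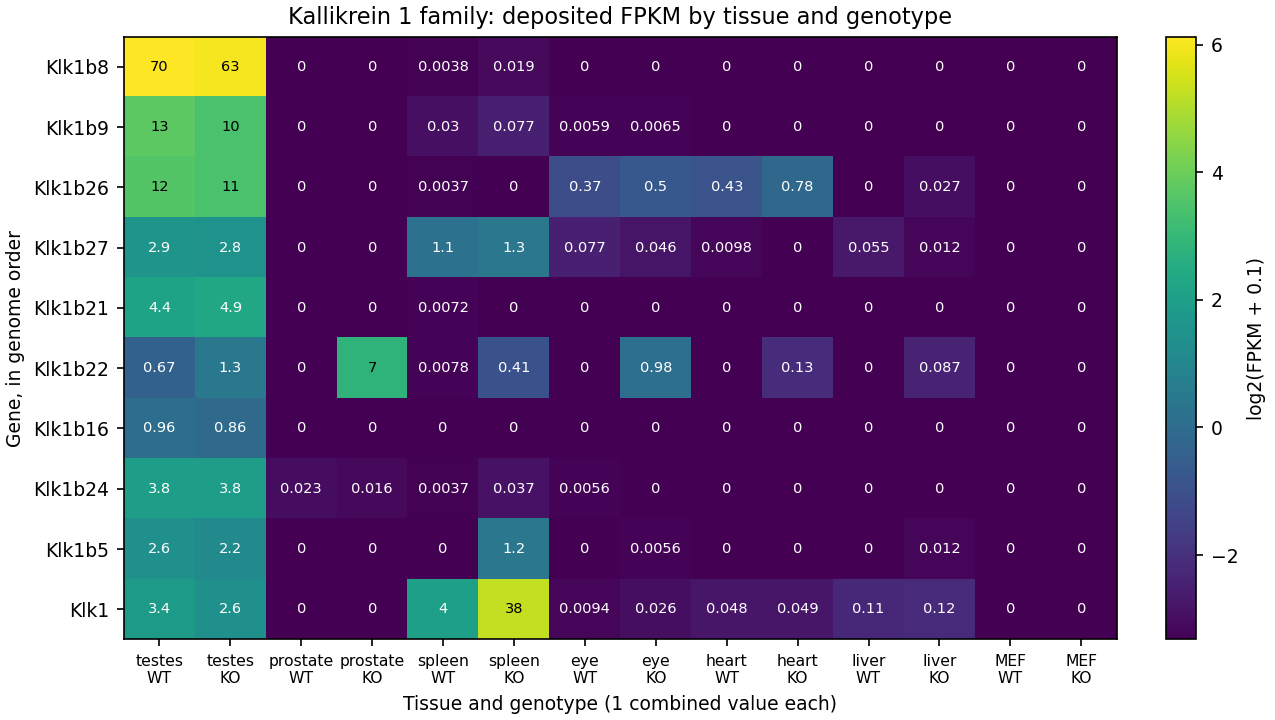
Deposited FPKM of the 10 members (rows, in genome order) in each tissue and genotype (columns), coloured by log2(FPKM + 0.1) and printed in each cell. The testes columns are filled for all 10 members, whereas outside testes only Klk1 in spleen and Klk1b22 in KO prostate exceed 2 FPKM.

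In testes, Klk1b8 was the leading member, with 69.5 FPKM in WT and 63.5 FPKM in KO. It made up 61.2% of the summed level in WT and 61.7% in KO. Klk1b9, the type C EGF-binding protein, followed with 13.3 FPKM in WT and 10.4 FPKM in KO. Klk1b26, the prorenin-converting enzyme, gave 12.0 FPKM in WT and 10.6 FPKM in KO. These 3 were far above the other members in both genotypes, and all 3 were somewhat lower in KO.

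The members described in Leydig cells lay in the middle of the order. Klk1b21 read 4.36 FPKM in WT and 4.88 FPKM in KO. Klk1b24 was level at 3.85 FPKM and 3.84 FPKM, and Klk1b27 measured 2.87 FPKM in WT and 2.79 FPKM in KO. Of these 3, Klk1b21 was the only member besides Klk1b22 with a higher value in KO testes. The paper, in its comparison of WT, KO and Tug1 transgene testes, lists Klk1b21, Klk1b24 and Klk1b27 as significantly higher in KO. It also lists them as lower again with the transgene. The paper's levels are in TPM, another unit scaled to sequencing depth and gene length. They rest on uniquely mapped reads and on a testes set with more KO samples than here. The combined FPKM values used here show no such increase for Klk1b24 and Klk1b27 and only a small one for Klk1b21. With unit, read handling and samples all different, these values cannot be set like for like against the paper's list. The reason why they differ from that list was not tested.

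The kininogenase Klk1 had 3.43 FPKM in WT testes and 2.58 FPKM in KO testes, the lowest KO to WT ratio of the family, 0.751. Its neighbour and closest relative Klk1b5 had 2.57 FPKM and 2.16 FPKM. At the bottom of the order were gamma-renin Klk1b16, with 0.961 FPKM in WT and 0.863 FPKM in KO, and the type A EGF-binding protein Klk1b22, with 0.672 FPKM in WT and 1.27 FPKM in KO. The highest WT level exceeded the lowest by 104-fold. Without replicate values, neighbours in this order cannot be told apart by their spread. Klk1b9 and Klk1b26, Klk1 and Klk1b27, and Klk1b16 and Klk1b22 changed places between the genotypes, while 4 members kept their rank.

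A difference was called when it passed 2-fold on the log2(FPKM + 0.1) scale, in either direction, in a gene whose mean of both genotypes was at least 1 FPKM. In testes 8 members met that mean, and in these combined values 0 of them passed 2-fold. Klk1b16 and Klk1b22 did not meet it, with means of 0.912 and 0.970 FPKM, so the count does not cover them. Over all genes, 72 of 15143 did, or 0.475%. The ratios of 9 of the 10 members lay between 0.751 and 1.12, and Klk1b22 was at 1.89. For all 10 the median log2 difference was -0.14, beside -0.06 for all genes tested. The summed level differed by -0.14 on the log2 scale.

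**Figure D3:**
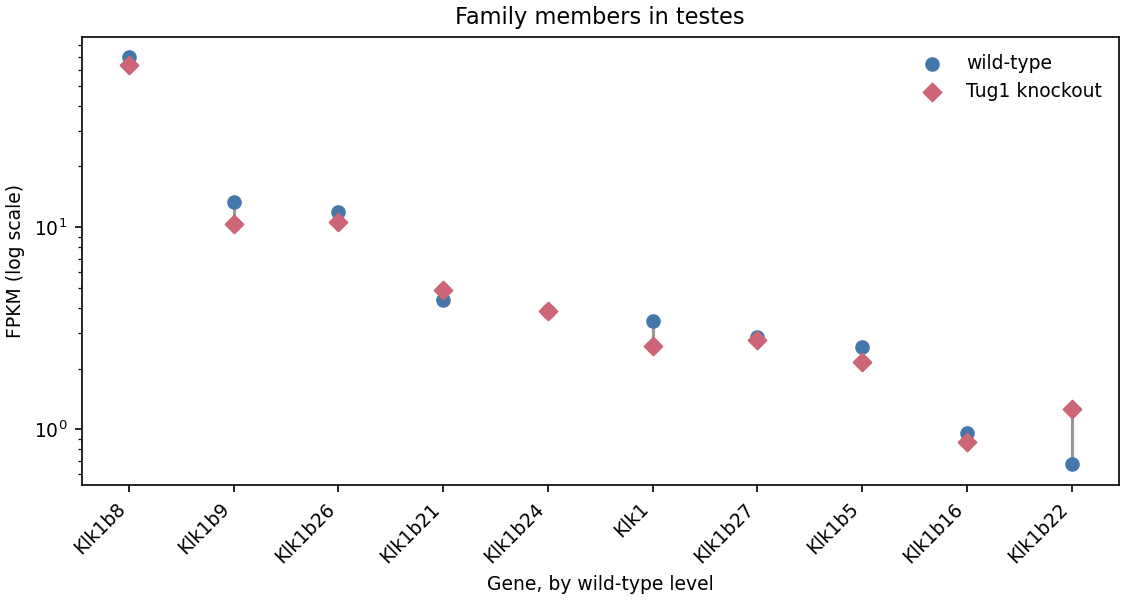
FPKM of each member in WT (circles) and KO (diamonds) testes on a log axis, ordered by WT level and joined by a grey line. For 9 members the KO to WT ratio lies between 0.751 and 1.12, and Klk1b22, at the right, has its KO symbol at 1.27 above its WT symbol at 0.672.

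The cells of the testis were followed by lists of marker genes. Of 8 Leydig cell genes, which include the steroid synthesis enzymes Cyp11a1 and Cyp17a1, 7 were higher in KO and 1 lower, none past 2-fold, with a median log2 difference of 0.35. The hormone gene Insl3 gave the sum its weight, at 756 FPKM in WT and 1131 FPKM in KO. All 6 Sertoli cell genes were higher in KO (median 0.31), and 5 of 6 germ cell genes were lower (median -0.15), again none past 2-fold. The summed level of the Leydig list was 1015 FPKM in WT and 1431 FPKM in KO, while the summed family was lower in KO. In bulk tissue, fewer cells of a type and less RNA per cell cannot be told apart. The part of cell composition in the member values was not tested. Salivary gland markers other than Amy1 were below 0.5 FPKM in testes of both genotypes, and Smgc was listed at 0.

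The protein-coding relatives Klk1b1, Klk1b3, Klk1b4 and Klk1b11, which do not belong to the 10, were also low outside testes, apart from Klk1b4. Klk1b3, the gamma subunit of nerve growth factor, had 3.74 FPKM in WT testes and 3.44 FPKM in KO testes. Klk1b4, the alpha subunit, had 0.946 FPKM and 1.28 FPKM in testes, and reached 4.24 FPKM in WT liver and 5.27 FPKM in KO liver, a tissue where members reached at most 0.120 FPKM. Klk1b1 and Klk1b11 stayed below 0.3 FPKM in all groups. The pseudogene Klk1b7-ps, beside Klk1b8, read 27.2 FPKM in WT testes and 24.7 FPKM in KO testes, although none of its windows matched Klk1b8 at 2 mismatches.

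In prostate, Klk1b22 was the member with a signal, in KO animals alone. It was listed at 0 in WT and at 6.99 FPKM in KO. Klk1b24 was at 0.0234 FPKM in WT and 0.0163 FPKM in KO, and the other 8 members were listed at 0 in both genotypes. Klk1b22 was thus the only member with a mean of at least 1 FPKM, and it met that mean through its KO value alone. With WT at 0, it then had to pass 2-fold, so its call adds nothing to the values. Of all 12166 genes tested in prostate, 1.11% were called, which is given as background only. The authors' table marked the Klk1b22 comparison as completed. No fold can be given against a value of 0.

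Of the 6428 genes listed at 0 in WT prostate, 9 had at least 1 FPKM in KO prostate, and Klk1b22 was the third highest of them. The others were the predicted genes Gm17374, Gm11705, Gm10964, Gm5538 and Gm21060, the immunoglobulin segments Igkv4-54 and Igkv4-62, and Glipr1l1. This set was chosen after its values were seen.

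Genes that mark the prostate and its response to androgens were present in both genotypes. Probasin (Pbsn), a secreted androgen-dependent protein of the prostate, had 25020 FPKM in WT and 21141 FPKM in KO. Among 7 androgen response genes, 3 were higher and 4 lower in KO, none past 2-fold, with a median log2 difference of -0.01. Tgm4, a transglutaminase gene of the prostate, was listed at 0 in both genotypes with its estimate marked as not completed, and Spink1 was not found under that symbol, so 6 of 7 prostate epithelium genes were found in the table. Seminal vesicle genes were present in both groups. Of the 6, 3 were higher and 3 lower in KO, with a median log2 difference of -0.21. Svs5 alone passed 2-fold, with 4183 FPKM in WT and 11507 FPKM in KO, and most of the difference in the summed level (8759 FPKM and 16564 FPKM) lay in it. Svs1, Svs3a and Svs6 were the lower ones, with KO to WT ratios of 0.663, 0.635 and 0.676. The part of neighbouring tissue in the Klk1b22 value was not tested. Of 6 salivary gland markers, Smgc, Bpifa2, Dcpp1 and Prol1 were listed at 0 in both prostate groups, Amy1 had 12.0 FPKM in WT and 9.87 FPKM in KO, and Muc19 had 0.245 FPKM and 0.189 FPKM.

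Klk1b22 was higher in KO in 6 of the 7 tissues and listed at 0 in both genotypes of the MEFs. In eye it was listed at 0 in WT and at 0.980 FPKM in KO. Spleen gave 0.00783 FPKM in WT and 0.415 FPKM in KO. In heart and liver, where the table marked the comparison as not tested, WT was listed at 0 and KO at 0.129 FPKM and 0.0874 FPKM. Outside testes, WT values of Klk1b22 were therefore at or near 0 in all tissues, and KO values spanned 0 to 6.99 FPKM. The table gives no read counts, so no upper limit can be set on the values of 0.

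The same pattern was looked for in all genes, with limits and tissues set after the values of Klk1b22 were seen. Klk1b22 therefore had to meet them. In the table of 26653 genes, 2 were at most 0.01 FPKM in WT and at least 0.05 FPKM in KO in each of prostate, spleen, eye, heart and liver. They were Klk1b22 and the lacZ reporter of the targeted allele. The opposite pattern, with WT and KO exchanged, was met by 0 genes. Even the deleted gene Tug1 did not meet it, with 0.101 FPKM in KO prostate. The 2 counts thus cannot be weighed against each other. In KO tissues lacZ and Klk1b22 did not follow the same order: KO prostate, the highest tissue for Klk1b22, had 0.734 FPKM of lacZ, and KO testes, the highest for lacZ, had 54.3 FPKM of it and 1.27 FPKM of Klk1b22.

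**Figure D4:**
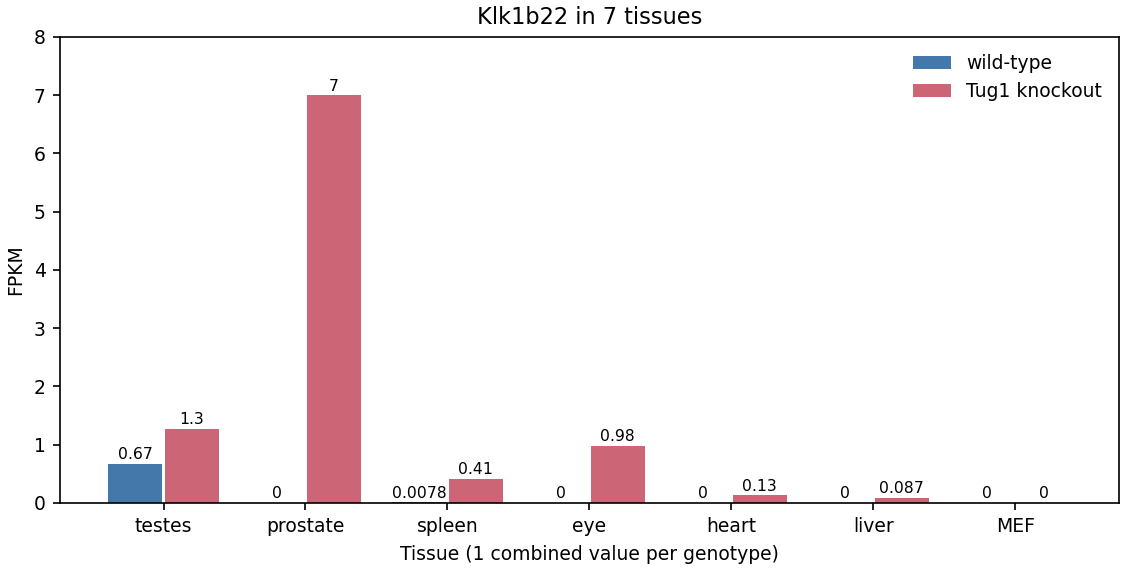
FPKM of Klk1b22 in WT (blue) and KO (red) animals in 7 tissues on a linear axis from 0, with 1 combined value per bar and the value printed above it. WT bars are visible in testes alone (0.672), and the KO prostate bar at 6.99 is the highest of all.

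Relatives of Klk1b22 were compared with it in the same groups. Klk1b16 and Klk1b21, the genes on either side of it, were listed at 0 in both genotypes of prostate, eye, heart and liver. In spleen Klk1b16 was listed at 0 in both genotypes, and Klk1b21 at 0.00717 FPKM in WT and 0 in KO. Klk1b9, whose upstream sequence is the most like that of Klk1b22 among those compared, was listed at 0 in prostate, heart and liver, and read 0.0302 FPKM in WT and 0.0771 FPKM in KO spleen and 0.00593 FPKM and 0.00655 FPKM in eye. Klk1b11, which is no member, was listed at 0 in WT prostate and at 0.0665 FPKM in KO prostate, and measured 0.0226 FPKM in WT and 0.266 FPKM in KO spleen. It was listed at 0 in both genotypes of heart and was lower in KO liver (0.0638 FPKM and 0.0337 FPKM).

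In spleen, Klk1 was the most abundant member in both genotypes, with 3.96 FPKM in WT and 37.7 FPKM in KO, a 9.52-fold higher value. Klk1b27, the second spleen member, measured 1.08 FPKM in WT and 1.25 FPKM in KO. These were the 2 members with a mean of at least 1 FPKM, and 1 of them passed 2-fold, beside 1.90% of all 12618 genes tested in spleen. Klk1b5 was listed at 0 in WT spleen and at 1.23 FPKM in KO spleen, with a mean below 1 FPKM. How reads from the windows that Klk1 and Klk1b5 share were divided between them is not known. The other 7 members were at or below 0.415 FPKM.

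Genes of the exocrine pancreas, which lies against the spleen and in which Klk1 is also made, were higher in KO spleen as well. All 6 acinar genes of the list were past 2-fold higher in KO spleen, by 30.4-fold for the elastase gene Cela1 up to 693-fold. Their summed level was 18.6 FPKM in WT and 2273 FPKM in KO. Carboxypeptidase Cpa1 had 0.383 FPKM in WT and 199 FPKM in KO, and pancreatic lipase (Pnlip) had 0.553 FPKM and 367 FPKM. Klk1 stood at 21.3 for every 100 FPKM of the summed acinar genes in WT spleen, where Cela1 made up most of that sum (15.6 FPKM), and at 1.66 in KO spleen. The difference between genotypes was 33.7 FPKM for Klk1 and 2254 FPKM for the acinar sum, or 1.5 for every 100. By log2 difference Klk1 ranked 37 among the genes tested in spleen. The part of pancreatic RNA in the Klk1 value was not tested.

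**Figure D5:**
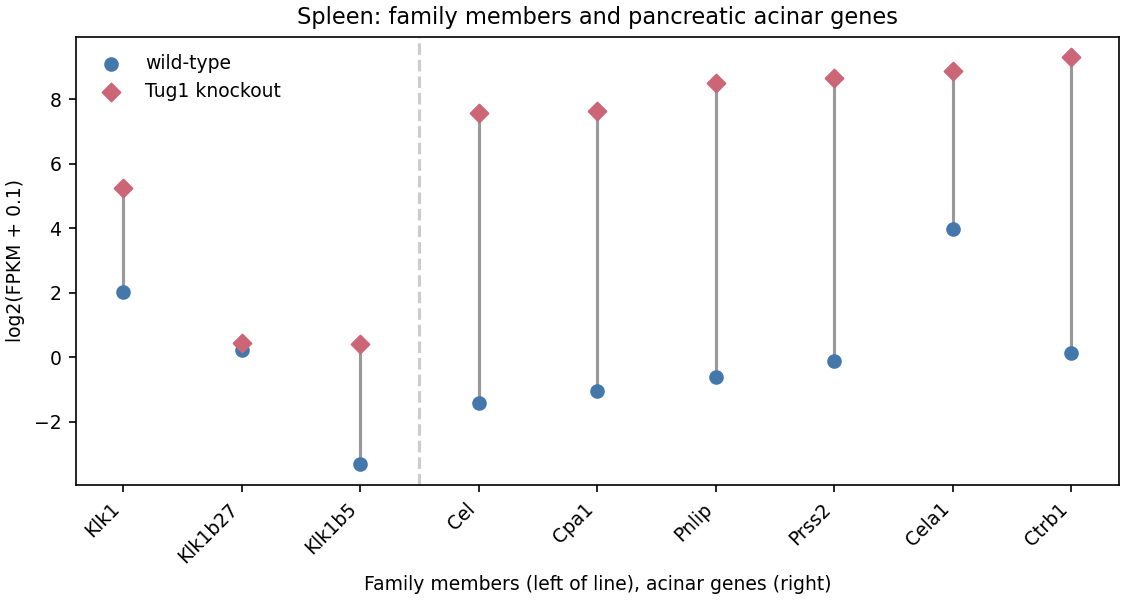
log2(FPKM + 0.1) of Klk1, Klk1b27 and Klk1b5 (left of the dashed line) and of 6 pancreatic acinar genes (right) in WT (circles) and KO (diamonds) spleen. Klk1 goes from 3.96 to 37.7 FPKM and Klk1b27 nearly stays in place, while each acinar gene spans at least 30.4-fold.

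The genes whose pattern over the 14 tissue and genotype values was most like that of Klk1 were Mpo (Pearson r = 0.990), Cldn13 (0.978), Cd177 (0.971), Btnl10 (0.970) and Gm26916 (0.964), on the log2(FPKM + 0.1) scale. Mpo encodes myeloperoxidase, an enzyme of neutrophil granules, and measured 4.86 FPKM in WT spleen and 17.1 FPKM in KO spleen. For the sum of the 9 Klk1b members they were Gm21897 (0.941), Gm12052 (0.932), Gm26686 (0.930), Gm26547 (0.924) and Rfx2 (0.922). Rfx2, a transcription factor of male germ cells, had 169 FPKM in WT testes and 151 FPKM in KO testes. These correlations were taken over 7 tissues that share their libraries between genes, and in all genes 94 had an r above 0.9 to Klk1 and 42 to the Klk1b sum.

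Eye, heart and liver held traces of the family. Besides Klk1b22, Klk1b26 was the member seen most clearly, with 0.369 FPKM in WT eye and 0.502 FPKM in KO eye, and with 0.428 FPKM in WT heart and 0.780 FPKM in KO heart. Klk1 was level in heart (0.0476 FPKM and 0.0488 FPKM) and in liver (0.110 FPKM and 0.120 FPKM). In these 3 tissues and in MEFs 0 members had a mean of at least 1 FPKM, so none could be called.

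Partners of the family differed in where they were expressed. Kininogen 1 (Kng1), the substrate from which kinin is cut, was a liver gene with 1977 FPKM in WT and 2122 FPKM in KO, and was at most 0.0342 FPKM in testes. The kinin receptors Bdkrb1 and Bdkrb2 were below 0.5 FPKM in all groups. The kinin-degrading enzyme Ace was high in testes, with 320 FPKM in WT and 283 FPKM in KO. Of 9 genes of the kinin system, 4 had a mean of at least 1 FPKM in testes, 2 in prostate and 6 in liver, and 0 passed 2-fold in any of the 7 tissues. In prostate, where Klk1b22 was seen in KO, the family substrates Egf (180 FPKM and 168 FPKM) and renin 1, Ren1 (7690 FPKM and 5665 FPKM), were lower in KO and did not pass 2-fold. In testes Igfbp3, which binds insulin-like growth factors, was the only substrate with a mean of at least 1 FPKM, at 1.29 FPKM in WT and 2.86 FPKM in KO, past 2-fold.

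Genes next to the cluster were read in the same groups. The nearest gene beyond Klk1, 1700028J19Rik, was a testis gene as well, with 311 FPKM in WT testes and 282 FPKM in KO testes, and was below 0.4 FPKM elsewhere. On that side, 2410002F23Rik was present in all tissues (5.85 to 39.6 FPKM) and Acpt read 15.9 FPKM and 13.4 FPKM in testes. On the Klk1b8 side, 2310002F09Rik and Ctu1 had at most 0.228 and 4.83 FPKM in any group, and Siglece, a myeloid receptor gene, was highest in spleen at 10.0 FPKM in WT and 12.4 FPKM in KO. Siglece was also higher in KO in 6 of 7 tissues, the eye being the exception, with 1.65 FPKM in WT and 3.52 FPKM in KO liver, past 2-fold, and 0.134 FPKM and 0.750 FPKM in MEFs. Unlike Klk1b22 it was above 0 in WT in all 7. In prostate, these 6 genes differed by at most 0.81 on the log2 scale between genotypes.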

How the data were processed

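The authors deposited 1 table of FPKM values, combined per genotype and tissue, with a status for each comparison (completed, not tested, or too little or failed data). The unit is not named in the file and was read from its layout, which is that of Cuffdiff. Per the labels, CASAVA 1.8.2, TopHat2, Cuffdiff and mm10 were used. The table also holds the authors' own fold changes, test statistics, p-values and q-values, none of which were used. Its 26653 rows for adult brain, 1 tissue, matched no sample of the series and were not used. Depth per sample and replicate values were not analysed here.

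Both genotype columns were compared as log2(FPKM + 0.1), and a gene was called past 2-fold when its mean was at least 1 FPKM. The error rate of these calls was not tested, because the table holds no replicate values. Coding sequences, windows and positions came from GENCODE vM21, with the longest coding transcript per gene, and promoters from RefSeq GRCm38.p6. Members may trade reads in stretches of similar sequence under the authors' alignment, which moves single members more than their sum. All members, marker lists, the 5 most alike genes per pattern and the 3 nearest non-kallikrein genes on each side were named. Some genes of the lists are not reported here. The members and lists were chosen with earlier results of these data known. Computation used Python 3.11.15, pandas 2.3.3 and numpy 2.4.6.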

Additional observations from a re-analysis of the deposited data

How the results depend on the processing

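Of 59 values recomputed under an alternative, 51 stayed within 1.5 times. This was judged on the counts and, for the sums, on the KO to WT ratio before the log2 was taken. Many of the 51 could not move, as given below, so that number is no measure of stability. In spleen 1 member passed 2-fold, and 3 did with a mean of at least 0.1 FPKM or without a filter on low values, when Klk1b22 and Klk1b5 joined Klk1. In eye 0 members passed, and 1 did (Klk1b22) with a mean of at least 0.1 FPKM or without a filter. In heart the count went from 0 to 1 (Klk1b22) without a filter. In eye and heart 0 members had a mean of at least 1 FPKM, so the count could move only when that limit was lowered. In testes the count was 0 under all 7 alternatives, beside 0.264% to 1.92% of all genes. With so few members and so small a share, this too is no measure of stability. Klk1b22, with a mean just under 1 FPKM, was left out by the filter when the limit was 1.5-fold. In MEFs, where all members are at 0, and in prostate, where Klk1b22 is at 0 in WT, the count could not change, and in liver 1 member at most passed any filter that was set, so the same counts there say nothing of stability. The summed log2 difference in prostate, 5.85, was 2.97 with a pseudocount of 1 and 7.71 with a pseudocount of 0.01, since WT stands almost at 0, and it turned to -0.086 when Klk1b22 was left out, which leaves traces of Klk1b24 alone. No paired analysis was possible because the table holds 1 combined value per genotype and tissue. For the same reason no replicate could be left out, and the number of reads behind a value is unknown.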

Other observations

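Outside the Klk1 family, the kallikrein-related peptidases of the same chromosome cluster had their own sites. Klk6 was seen in eye, at 7.51 FPKM in WT and 10.5 FPKM in KO, and was below 0.1 FPKM elsewhere. Klk8, known from brain and skin, was at 9.61 FPKM in WT spleen and 9.95 FPKM in KO spleen, at 5.69 FPKM and 5.23 FPKM in heart, and at 11.9 FPKM and 9.64 FPKM in MEFs, where all members of the Klk1 family were listed at 0. Of the 12 genes of this list, at most 1 in any tissue had the mean of at least 1 FPKM that a call needs, and those did not pass 2-fold.

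Fkbp5, a co-chaperone gene induced by glucocorticoids and androgens, was higher in KO in all 7 tissues. It read 14.8 FPKM in WT and 30.4 FPKM in KO spleen, 5.78 FPKM and 15.9 FPKM in heart, and 12.3 FPKM and 26.2 FPKM in liver, past 2-fold in these 3. In prostate it read 12.4 FPKM and 22.1 FPKM, and in testes 22.4 FPKM and 25.2 FPKM.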
